A study of Mus musculus with 12 samples.

Results

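Transcript levels of 9 genes named for group 2 innate lymphoid cells were examined in lineage-depleted mouse bone marrow: Gata3, Rora and Bcl11b (transcription factors), Icos, Il1rl1, Il17rb, Il18r1 and Klrg1 (surface receptors) and Arg1 (an enzyme). The genes were picked by symbol, with earlier results of these arrays known, among them the lower Gata3 and Icos levels of the E4bp4 knockout. A gene was followed through the row of the array table that names it alone, and where several rows do so the one of highest mean over all 12 arrays was to be taken. That found 8 of the 9 genes, with 1 row each, among 19937 genes with such a row and 34760 rows (transcript clusters, the array's unit of summary) in all. Il1rl1 was not analysed here.

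The arrays held RNA of 6 E4bp4-/- mice and 6 E4bp4+/+ mice. E4bp4 is also called Nfil3 and encodes a transcription factor with a leucine zipper. Both groups were the marrow cells of the hind legs left once cells with Ter119, GR1, CD11b, B220, CD2 or NK1.1 on their surface had been taken out magnetically, a depletion that removes most mature natural killer, T, B, myeloid and red cells. The sources used here do not give age, sex, strain, the deleted part of E4bp4 or whether all cells lacked it, and they name no treatment. Values are log2 levels as normalised by the authors.

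Group 2 innate lymphoid cells are tissue lymphocytes without rearranged antigen receptors that answer epithelial alarm cytokines by secreting type 2 cytokines such as Il5 and Il13. Their precursors arise in bone marrow, where Nfil3 and Id2 act in the earliest steps of innate lymphoid commitment and Gata3, Rora and Bcl11b act later. Gata3, Icos and Bcl11b are also used by T cells, so that none of these genes marks a single cell type on its own.

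Some measurements of the arrays as a whole bear on what follows. Array medians ran from 6.50 to 6.62 and the 20th percentiles from 4.93 to 4.99. Nfil3 itself lay between 6.34 and 6.92 in E4bp4-/- marrow (median 6.38) and between 6.94 and 7.66 in E4bp4+/+ marrow (median 7.11), so the genotypes did not overlap, and the nearest arrays across genotypes were E4bp4-/- replicate 2 and E4bp4+/+ replicate 5. The array of E4bp4-/- replicate 1 stood apart, with Xist at 6.08, against 12.1 or more on every other array, and with high macrophage markers. The Y-linked genes Uty, Eif2s3y and Kdm5d stood at 7.70, 7.37 and 6.98 on it, with Uty at most 4.66 on the other arrays. These are the levels of a male sample, where the other arrays read as female. Sex is therefore uneven between genotypes wherever this array is used. Bulk RNA of a mixed fraction cannot tell fewer cells of a type from less RNA per cell, and this holds for every value below.

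As a guide to background, 1035 olfactory receptor genes, which marrow is not known to use, had a median level of 4.59, with a 95th percentile of 6.01 and a 99th percentile of 6.85. Il17rb (mean 7.90 over 12 arrays), Gata3 (6.79), Bcl11b (6.75) and Icos (6.30) lay above that 95th percentile. Rora (5.76), Il18r1 (5.60), Arg1 (5.15) and Klrg1 (4.74) lay below it. Only Il17rb, of the 8, also passed the 99th percentile. Klrg1 did not reach its array's 20th percentile on any of the 12 arrays and was therefore not tested, while the other 7 did so on all 12 arrays or, for Arg1, on 11. Probes differ in background, so these positions are a guide and do not rank the genes against each other. Of the type 2 cytokines, Il13 averaged 6.68 ± 0.12 in E4bp4-/- marrow and 6.63 ± 0.068 in E4bp4+/+ marrow (SD, n = 6 each), above 98.4% of the olfactory receptor genes, and Il9 lay above 96.2% of them, where Icos lay above 97.0%. Il5, at 4.72 in E4bp4-/- and 4.70 in E4bp4+/+ marrow, did not pass the filter. A place above this line does not show in which cells a transcript was present, or that group 2 innate lymphoid cells were among them.

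**Figure D1:**
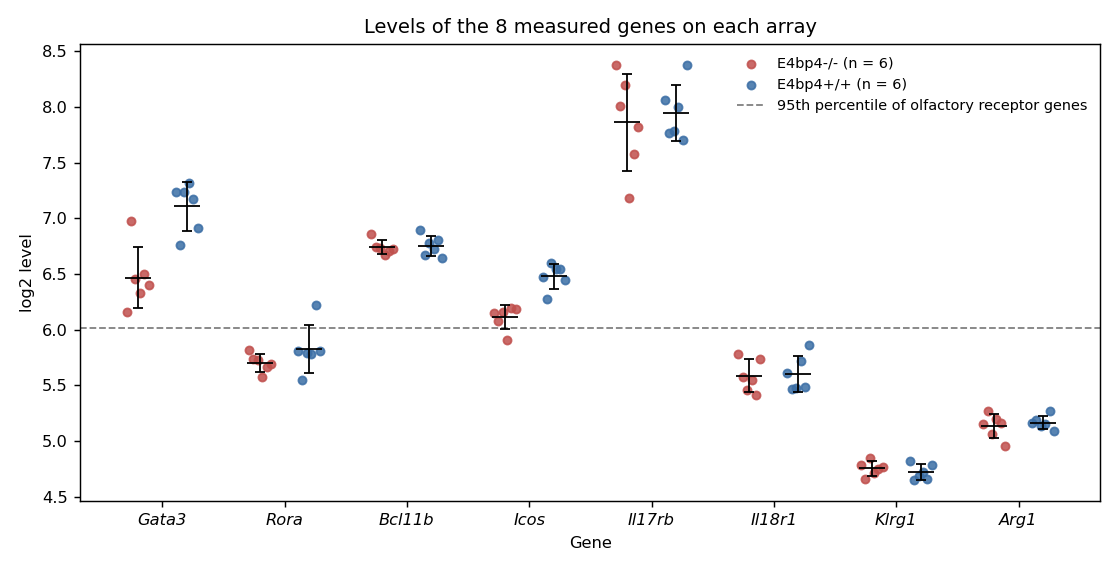
Log2 level (vertical axis) of the 8 measured genes on each array; red points are E4bp4-/- and blue points E4bp4+/+, 6 arrays each, with black bars for mean and SD and a dashed line at the 95th percentile of olfactory receptor genes (6.01). Gata3 and Icos sit lower in E4bp4-/- marrow, with 1 E4bp4-/- array of Gata3 at 6.97, and the other genes share their range between genotypes.

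Gata3, the zinc finger factor that innate lymphoid and T cell progenitors need, ran from 6.16 to 6.97 in E4bp4-/- marrow with a median of 6.42. In E4bp4+/+ marrow it ran from 6.76 to 7.31 with a median of 7.21. The genotypes overlapped through 1 knockout array: replicate 2, at 6.97, lay above E4bp4+/+ replicates 2 (6.76) and 6 (6.91), and the other 5 E4bp4-/- arrays lay at or below 6.50. Mean levels were 6.47 ± 0.27 in E4bp4-/- and 7.11 ± 0.22 in E4bp4+/+ marrow (SD, n = 6 each), a difference of -0.64 ± 0.13 log2 (SE), or 1.56-fold. Replicate 2 was also the knockout array with the highest Nfil3 level, 6.92. Over the 6 E4bp4-/- arrays Gata3 and Nfil3, paired after the data were seen, gave a Pearson r of 0.91 (exact permutation p = 0.075, adjusted 0.957). Their Spearman rho was 0.49 (exact permutation p = 0.356). In E4bp4+/+ marrow r was 0.17 (exact permutation p = 0.942, adjusted 0.987). Gata3 was among the genes picked because its difference was known, so no test of that difference is given.

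Rora, a nuclear receptor needed for group 2 innate lymphoid cell development, ran from 5.57 to 5.81 in E4bp4-/- marrow (median 5.71) and from 5.55 to 6.22 in E4bp4+/+ marrow (median 5.80). E4bp4+/+ replicate 5, at 6.22, stood above all other arrays and E4bp4+/+ replicate 2, at 5.55, below all E4bp4-/- arrays, and the other 4 E4bp4+/+ arrays lay inside the E4bp4-/- range. The difference was -0.12 ± 0.089 log2 (SE), with a 95% interval from -0.32 to 0.07 and an adjusted p of 0.528 in limma over all 29541 transcript clusters tested. Without E4bp4+/+ replicate 5 it was -0.04. That array also had the highest Col1a1 (13.2), Col1a2 (12.95) and Sparc (13.64), genes of bone-forming and stromal cells, and the part of such cells in the Rora level was not tested.

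Bcl11b, a zinc finger factor that holds T cells and group 2 innate lymphoid cells to their identity, was nearly level between genotypes. It ran from 6.67 to 6.86 in E4bp4-/- marrow (median 6.73) and from 6.65 to 6.89 in E4bp4+/+ marrow (median 6.75), so that the E4bp4-/- range lay inside the E4bp4+/+ range. The difference was -0.01 ± 0.049 log2, with a 95% interval from -0.12 to 0.09 and a limma adjusted p of 0.926.

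The sequences upstream of these 3 transcription factors are shown because E4bp4 is known to bind sequences of the form TTANGTAA. Each runs over the 250 bases before the transcription start in the RefSeq promoter table of build GRCm38.p6, which holds 6 of the 9 genes, 5′ to 3′ on the gene's strand, with capitals for the half-site GTAA or its complement TTAC. The Gata3 stretch is chr2:9878601-9878850 on the minus strand, that of Rora chr9:68653536-68653785 on the plus strand and that of Bcl11b chr12:108003415-108003664 on the minus strand.
Gata3: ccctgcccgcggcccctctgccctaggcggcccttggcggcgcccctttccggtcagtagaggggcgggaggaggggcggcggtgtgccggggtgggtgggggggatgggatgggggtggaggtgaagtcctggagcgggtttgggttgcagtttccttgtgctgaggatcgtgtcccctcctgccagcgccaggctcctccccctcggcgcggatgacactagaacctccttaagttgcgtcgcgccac
Rora: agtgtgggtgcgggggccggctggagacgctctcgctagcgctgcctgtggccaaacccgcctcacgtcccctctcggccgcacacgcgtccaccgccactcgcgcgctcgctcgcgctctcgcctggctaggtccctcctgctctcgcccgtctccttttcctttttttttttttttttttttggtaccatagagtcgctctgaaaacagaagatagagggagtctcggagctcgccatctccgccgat
Bcl11b: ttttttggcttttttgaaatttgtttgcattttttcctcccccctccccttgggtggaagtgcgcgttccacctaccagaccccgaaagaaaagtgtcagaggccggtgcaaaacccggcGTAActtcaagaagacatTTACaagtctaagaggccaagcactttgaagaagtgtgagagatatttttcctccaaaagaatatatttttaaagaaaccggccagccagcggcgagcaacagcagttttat
The full motif TTANGTAA, searched on both strands, was in 0 of the 3 stretches, against 2.06% of 32851 promoters of the same length. The half-site GTAA, which is contained in that motif, was absent from the Gata3 and Rora stretches and present at 2 places in that of Bcl11b, against 61.5% of all promoters with at least 1. The Gata3 stretch was 70.0% G and C, against a median of 52.4% over all promoters, and a search of this short window says nothing on binding elsewhere.

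Icos, a costimulatory receptor of the CD28 family found on activated T cells and on group 2 innate lymphoid cells, was the one gene of the set whose genotypes did not overlap. It ran from 5.91 to 6.19 in E4bp4-/- marrow with a median of 6.15, and from 6.28 to 6.60 in E4bp4+/+ marrow with a median of 6.51. Mean levels were 6.11 ± 0.11 in E4bp4-/- and 6.48 ± 0.11 in E4bp4+/+ marrow (SD, n = 6 each), a difference of -0.37 ± 0.063 log2 (SE), or 1.29-fold. Of the E4bp4-/- arrays replicate 4, at 5.91, lay below the 95th percentile of olfactory receptor genes (6.01). The Icos difference, too, was known when the genes were picked. No p-value of its own is printed, and its 95% interval and its place in the counts below are likewise descriptive. The ligand of Icos, Icosl, averaged 6.74 ± 0.096 in E4bp4-/- and 6.79 ± 0.11 in E4bp4+/+ marrow, a difference of -0.05 ± 0.060 log2 (limma adjusted p 0.698).

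Il17rb, the receptor chain that binds the cytokine Il25, had the widest spread of the 8 genes. It ran from 7.19 to 8.38 in E4bp4-/- marrow (median 7.91) and from 7.70 to 8.37 in E4bp4+/+ marrow (median 7.89). The highest array of each genotype was nearly the same, and 2 of the 6 E4bp4-/- arrays, replicates 4 and 5, lay below all E4bp4+/+ arrays. The difference was -0.08 ± 0.19 log2, with a limma adjusted p of 0.859 and a 95% interval from -0.49 to 0.32, which includes the size of the Icos difference.

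Il18r1, the binding chain of the interleukin 18 receptor, ran from 5.41 to 5.79 in E4bp4-/- marrow (median 5.56) and from 5.47 to 5.86 in E4bp4+/+ marrow (median 5.55). The ranges overlapped, with 2 E4bp4-/- arrays below and 1 E4bp4+/+ array above the range of the other genotype, and the difference was -0.01 ± 0.084 log2 with a 95% interval from -0.20 to 0.17 (limma adjusted p 0.953). Klrg1, an inhibitory lectin-like receptor of mature lymphocytes, ran from 4.66 to 4.85 in E4bp4-/- marrow (median 4.76) and from 4.65 to 4.82 in E4bp4+/+ marrow (median 4.70). Both ranges lie under the 20th percentile of the arrays, so that Klrg1 was not detectable above background in either genotype.

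Arg1, the arginine-cleaving enzyme present in group 2 innate lymphoid cells and in alternatively activated macrophages, ran from 4.96 to 5.27 in E4bp4-/- marrow (median 5.16) and from 5.09 to 5.27 in E4bp4+/+ marrow (median 5.16), with 2 E4bp4-/- arrays below all E4bp4+/+ arrays. The difference was -0.03 ± 0.053 log2, with a 95% interval from -0.14 to 0.08 and a limma adjusted p of 0.814. On E4bp4-/- replicate 1, where the macrophage genes Chil3 and Mrc1 reached 7.69 and 7.11 against at most 5.61 and 5.83 on the other knockout arrays, Arg1 stayed at 5.15.

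**Figure D2:**
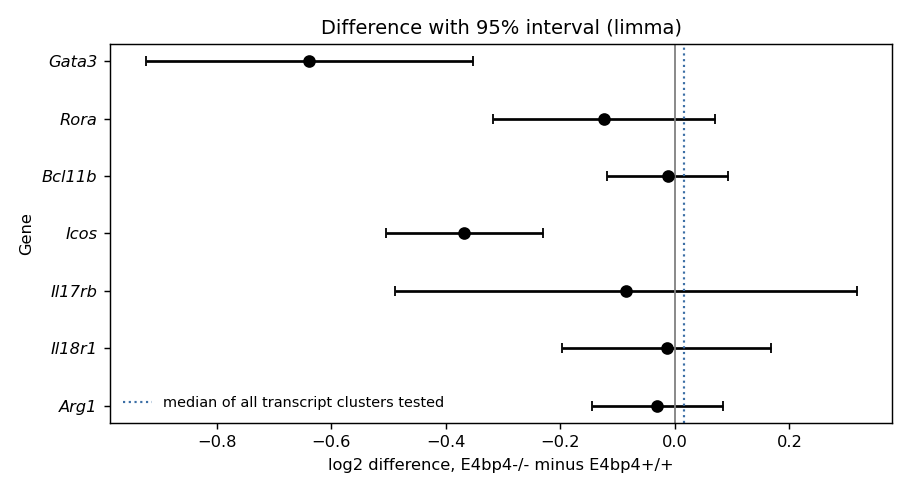
Log2 difference, E4bp4-/- minus E4bp4+/+ (horizontal axis), of the 7 tested genes; points are limma estimates over 6 arrays per genotype, bars 95% intervals, and the dotted line the median of all transcript clusters tested (0.02). Gata3 (-0.64) and Icos (-0.37), picked with these differences known, have the lowest estimates, and the Il17rb interval (-0.49 to 0.32) includes the Icos estimate. Because of that choice the bars of Gata3 and Icos are descriptive and are not tests.

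All 7 tested genes had a negative difference, 5 of them between -0.12 and -0.01 log2, where 44.1% of all transcript clusters tested were lower in E4bp4-/- marrow. The median of the 7 was -0.08 log2 and that of all transcript clusters 0.02. No gene of the set passed an adjusted p of 0.05, as was so for every transcript cluster (0% of 29541, smallest adjusted p 0.109, with 4391 or 14.9% at an unadjusted p under 0.05). At an unadjusted p under 0.05 there were 2 of the 7, Gata3 and Icos, both lower, where 6.39% of all transcript clusters were lower at that level. Without overlap of the genotypes, and lower in E4bp4-/-, there was 1 of the 7, against 0.65% of all transcript clusters (1.27% in either direction). A difference of -0.3 log2 or lower was found for 2 of the 7, against 1.96% of all transcript clusters. Both genes were picked with these differences known, so nothing is read from the counts. Without E4bp4-/- replicate 1 the Gata3 difference was -0.58 and that of Icos -0.38.

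Within a genotype, the spread between mice was used to see which genes varied together, since that spread played no part in the choice of genes. Gata3 was set against each of the other 7 measured genes in each genotype, 14 relations in all. In E4bp4+/+ marrow Gata3 and Icos gave a Pearson r of 0.89 (n = 6, two-sided exact permutation p = 0.0306, adjusted 0.428) and a Spearman rho of 0.89 (exact permutation p = 0.0333, adjusted 0.467). Without replicates 2 and 6, the arrays farthest from the median of Gata3, r was 0.06, so the relation rests on those arrays. In E4bp4-/- marrow Gata3 and Icos gave r = -0.05 and rho = 0.26 (exact permutation p = 0.70 and 0.658, adjusted 0.989 and 1.00, n = 6), and r = 0.82 without replicates 1 and 2. None of the 14 passed after adjustment.

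**Figure D3:**
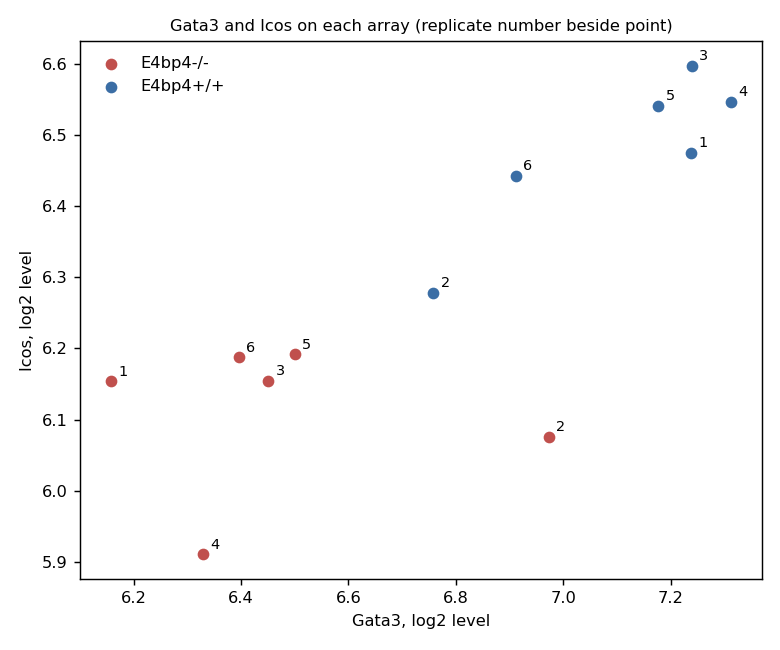
Log2 level of Gata3 (horizontal axis) and Icos (vertical axis) on each array, red for E4bp4-/- and blue for E4bp4+/+, with the replicate number beside each point. The 6 E4bp4-/- points lie below every E4bp4+/+ point in Icos, while replicate 2 of E4bp4-/- reaches the Gata3 range of E4bp4+/+.

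Arrays differed in where the genes stood as a group. E4bp4+/+ replicate 2 was the lowest wild type array for 5 of the 8 genes (Gata3, Rora, Icos, Il18r1 and Klrg1). Among the knockout arrays replicate 4 was lowest for 4 (Rora, Bcl11b, Icos and Il17rb), and replicate 1 was highest for 4 (Rora, Bcl11b, Il17rb and Il18r1) although lowest for Gata3.

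Genes whose levels varied most like Gata3, by Pearson r over the 12 values after centring each genotype on its mean, were Gm10190 (0.87), Snhg15 (0.82), Rfxap (0.81), Gm4532 (0.81) and Bag5 (0.80), out of 10571 transcript clusters that name 1 gene and lie at or above the median level. For Icos they were Ralgps2 (0.86), 9530068E07Rik (0.82), Uqcc3 (0.79), Tmem267 (0.78) and Cyb561d2 (0.78). Gata3 and Icos themselves gave 0.38 on this measure. The genes named are the highest of the search, so a lower value for a given pair does not show whether it varies together. The 12 points share the normalisation of their arrays, and the values are descriptive.

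Among the genes of the lists below, and chosen after the data were seen, Il2ra and Nmur1 had an r with Gata3 above 0.5 in both genotypes, of 148 genes and 296 relations examined. Il2ra encodes the alpha chain of the interleukin 2 receptor, and ran from 5.15 to 5.98 in E4bp4-/- marrow (median 5.40) and from 5.68 to 6.57 in E4bp4+/+ marrow (median 6.22). All E4bp4-/- arrays lay below the 95th percentile of olfactory receptor genes (6.01), as did the mean of all 12 arrays (5.85). Its order over the 6 E4bp4+/+ arrays was that of Gata3 (rho = 1.00, exact permutation p = 0.00278, adjusted 0.822, the raw value being the smallest the 720 pairings can give), with r = 0.92 (exact permutation p = 0.00278, adjusted 0.822) and r = 0.92 without the 2 arrays farthest from the median of Gata3. In E4bp4-/- marrow r was 0.86 and rho 0.49 (exact permutation p = 0.0583 and 0.356, adjusted 0.952 and 1.00), and r was -0.44 without the 2 farthest arrays. Nmur1, the neuromedin U receptor carried by group 2 innate lymphoid cells, gave r = 0.95 and rho = 0.94 in E4bp4-/- marrow (exact permutation p = 0.00556 and 0.0167, adjusted 0.822 and 0.987) and r = 0.56 and rho = 0.60 in E4bp4+/+ marrow (exact permutation p = 0.189 and 0.242, adjusted 0.957 and 1.00), with r of 0.90 and 0.42 without the 2 farthest arrays. None of the 296 passed after adjustment. Over so many relations a single one could not pass, even at the smallest p that the 720 pairings can give, so this outcome says little.

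Il17rb was set against 8 marker lists of other cell types in the same way, and its r was above 0.8 in both genotypes for 2 of them, eosinophils and plasmacytoid dendritic cells. Against the mean level of 7 eosinophil genes (such as the granule proteins Epx and Prg2), Il17rb gave r = 0.96 in E4bp4-/- marrow and r = 0.95 in E4bp4+/+ marrow (n = 6 each, exact permutation p = 0.00556 in both, adjusted 0.119), with rho = 0.94 in both (exact permutation p = 0.0167, adjusted 0.152). Without the 2 arrays farthest from the median of the eosinophil genes r was 0.89 and 0.82. In neither genotype was the relation particular to Il17rb. In E4bp4-/- marrow Rora gave r = 0.98 and Bcl11b r = 0.81 against the same genes (exact permutation p = 0.00278, adjusted 0.119, for each). In E4bp4+/+ marrow Rora and Bcl11b gave r = -0.43 and -0.34 (exact permutation p = 0.358 and 0.497, adjusted 0.776 and 0.858). Il18r1 gave r = 0.85 there, and Klrg1, which did not pass the filter, r = 0.80 (exact permutation p = 0.05 and 0.0694, adjusted 0.291 and 0.310). Gata3, Icos and Arg1 gave r = -0.34, -0.35 and -0.76 there (exact permutation p = 0.514, 0.494 and 0.0667, adjusted 0.865, 0.858 and 0.310). Against the mean of 12 basophil and mast cell genes, Il17rb gave r = 0.99 and rho = 1.00 in E4bp4-/- marrow (exact permutation p = 0.00278 for both, adjusted 0.119) and r = 0.56 and rho = 0.89 in E4bp4+/+ marrow (exact permutation p = 0.225 and 0.0333, adjusted 0.626 and 0.225), with r of 0.99 and 0.76 without the 2 farthest arrays. Against plasmacytoid dendritic cell genes r was 0.86 in E4bp4-/- and 0.88 in E4bp4+/+ marrow (exact permutation p = 0.0333 and 0.0139, adjusted 0.225 and 0.119), rho was 0.83 in both (exact permutation p = 0.0583, adjusted 0.325), and r was 0.25 and 0.58 without the 2 farthest arrays. Against macrophage genes r was 0.71 in E4bp4-/- and 0.91 in E4bp4+/+ marrow (exact permutation p = 0.025 and 0.0111, adjusted 0.20 and 0.119), rho was 0.89 and 0.83 (exact permutation p = 0.0333 and 0.0583, adjusted 0.225 and 0.325), and r was 0.71 and 0.90 without the 2 farthest arrays. Differences between these relations were not tested. These come from 128 relations of the 8 genes with 8 cell type marker lists in each genotype, examined after the data were seen, and none passed after adjustment. Here too a single relation could not pass, since the smallest exact permutation p, 0.00278, is too large once adjusted over 128 relations. The array lowest in Il17rb, E4bp4-/- replicate 4 at 7.19, was also the lowest in the eosinophil genes, with a mean of 7.93 against 8.66 or more on all other arrays. The part of these cells in the Il17rb level was not tested.

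**Figure D4:**
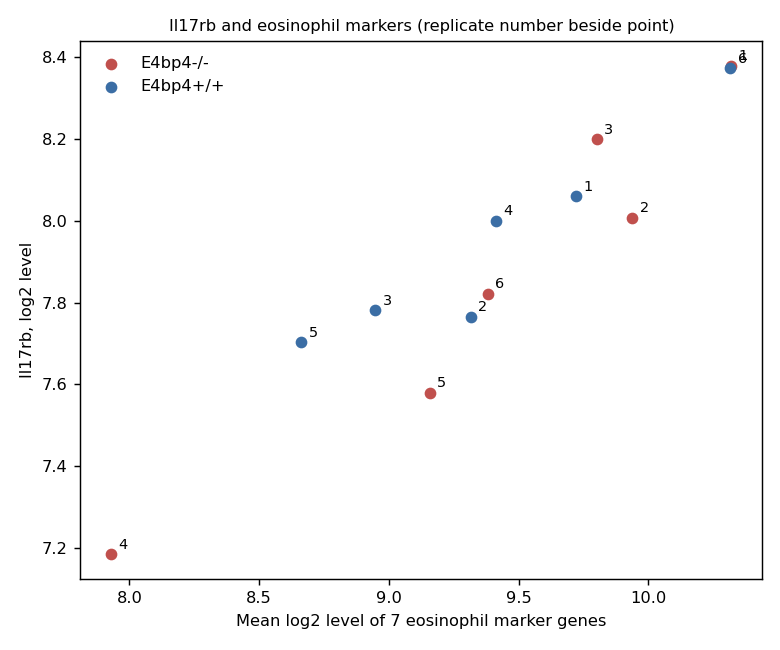
Mean log2 level of 7 eosinophil marker genes (horizontal axis) and log2 level of Il17rb (vertical axis) on each array, red for E4bp4-/- and blue for E4bp4+/+, with the replicate number beside each point. Il17rb is high where the eosinophil genes are high in both genotypes (r = 0.96 in E4bp4-/- and 0.95 in E4bp4+/+), and replicate 4 of E4bp4-/- is lowest on both axes.

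For Gata3 and Icos the same marker lists gave no relation that was strong in both genotypes. With stromal and endothelial genes, Gata3 gave r = 0.80 and Icos r = 0.88 in E4bp4+/+ marrow (exact permutation p = 0.075 and 0.0722, adjusted 0.310 for both; rho = 0.54 and 0.71, exact permutation p = 0.297 and 0.136, adjusted 0.793 and 0.562), and r of 0.62 and 0.59 without the 2 farthest arrays. In E4bp4-/- marrow the same relations gave, for Gata3 and for Icos, r = 0.25 and -0.33 (exact permutation p = 0.75 and 0.583, adjusted 0.983 and 0.912), with rho = 0.20 and -0.31 (exact permutation p = 0.714 and 0.564, adjusted 0.962 and 0.914), and r of 0.50 and 0.36 without the 2 farthest arrays. The stromal and endothelial list was split, with 6 of 10 genes lower and 4 higher in E4bp4-/- marrow, and the log2 of its summed linear level, called its summed level here, ran from 14.16 to 14.62 in E4bp4-/- and from 14.15 to 14.92 in E4bp4+/+ marrow. Of that list Tek, the angiopoietin receptor, differed by 0.19 ± 0.050, the endothelial cadherin Cdh5 by -0.22 ± 0.093 and the vascular receptor Kdr by 0.13 ± 0.070 log2.

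Further lists of the pathway were compared, 16 in all, written with earlier results of these arrays known, and 0 of their 151 distinct tested genes passed an adjusted p of 0.05 in limma. At an unadjusted p under 0.05, 8 of the 151 were lower and 15 higher in E4bp4-/- marrow, where 6.39% of all transcript clusters were lower and 8.47% higher at that level. The array medians ran from 6.54 to 6.62 in E4bp4-/- and from 6.50 to 6.56 in E4bp4+/+ marrow, so that centring each array on its median lowers every difference by 0.04 log2, as much as several list medians given here. Of the effector genes of group 2 innate lymphoid cells 4 of 5 were higher, with a median of 0.04 log2, and 2 of 5 after that centring, with a median of -0.0037. Il9, Il13 and the neuropeptide Nmu differed by 0.07 ± 0.058, 0.05 ± 0.057 and 0.04 ± 0.045 log2. The mean of Nmu, 5.12, lay below that percentile. Of the ligands of the receptors above 5 of 7 were higher, with a median of 0.04, and 3 of 7 without E4bp4-/- replicate 1, with a median of -0.0095. The alarm cytokine Il33, the ligand of Il1rl1, differed by 0.09 ± 0.048, Il25 by 0.10 ± 0.085 and the cadherin Cdh2, a ligand of Klrg1, by -0.31 ± 0.18 log2. The mean of Il33, 5.19, lay below the 95th percentile of olfactory receptor genes as well.

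Receptor partners divided evenly as deposited, with 8 of 16 lower and 8 higher and a median of 0.00085 log2. After median centring 9 of 16 were lower, with a median of -0.04, and without E4bp4-/- replicate 1 also 9, with a median of -0.02. Il2ra, whose mean lay below the 95th percentile of olfactory receptor genes, differed by -0.73 ± 0.16 log2, and its genotypes overlapped in 1 knockout array, replicate 2 at 5.98, and 1 wild type array, replicate 2 at 5.68. Gata3 overlapped through the same knockout array, there with E4bp4+/+ replicates 2 and 6. Ccr9, a chemokine receptor of gut-homing lymphocytes and plasmacytoid dendritic cells, averaged 6.13 ± 0.24 in E4bp4-/- and 6.64 ± 0.28 in E4bp4+/+ marrow, a difference of -0.51 ± 0.14 log2 (limma adjusted p 0.184). Kit, the stem cell factor receptor, differed by 0.19 ± 0.064 log2.

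In the list of innate lymphoid precursors, which holds Gata3 and Arg1, 8 of 15 genes were lower, with a median of -0.0081 log2. After median centring 10 of 15 were lower, with a median of -0.05, and without E4bp4-/- replicate 1 it was 9, with a median of -0.03. Nfil3 differed by -0.68 ± 0.13, the cytokine receptor Flt3 by 0.36 ± 0.11 and Gata3, picked with its difference known, by -0.64 log2. Id2, whose product blocks E protein factors, differed by -0.77 ± 0.28 log2, with E4bp4-/- replicates 1 and 2 at 9.19 and 8.72 and the other knockout arrays at or below 7.72 (named after its value was seen). Of regulators of the other innate lymphoid subsets 2 of 8 were lower, with a median of 0.04, and 4 of 8 after median centring, with a median of -0.0029. The natural killer receptor Ncr1 differed by -0.14 ± 0.061, the xenobiotic sensor Ahr by 0.18 ± 0.090 and the T-box factor Eomes by 0.07 ± 0.050 log2. The GATA family and Gata3 partners had 11 of 16 genes higher, with a median of 0.09. After median centring 10 of 16 were higher, with a median of 0.05, and without E4bp4-/- replicate 1 also 10, with a median of 0.03. Gata2, the progenitor and mast cell GATA factor, differed by 0.17 ± 0.052, Runx3 by 0.13 ± 0.039 and Myb by 0.11 ± 0.049 log2.

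Of the T cell markers, a list that holds Bcl11b, 12 of 15 genes were higher in E4bp4-/- marrow, with a median of 0.06 log2. Their mean level ran from 6.16 to 6.20 in E4bp4-/- and from 6.03 to 6.15 in E4bp4+/+ marrow. These ranges did not overlap as deposited and did after centring each array on its median (6.11 to 6.20 in E4bp4-/- and 6.05 to 6.20 in E4bp4+/+ marrow), with 9 of 15 genes then higher. As deposited their summed level ran from 10.48 to 10.63 in E4bp4-/- and from 10.31 to 10.46 in E4bp4+/+ marrow. Lat, an adaptor of T cells, mast cells and platelets, differed by 0.34 ± 0.10, Cd3e by 0.19 ± 0.070 and Cd3g by 0.16 ± 0.063 log2, with limma adjusted p-values of 0.207, 0.258 and 0.291. Cd3d and Cd3g lay below the 95th percentile of olfactory receptor genes in both genotypes, and the depletion through CD2 removes T cells. Of the CD28 family and its ligands 6 of 9 were higher, with a median of 0.04; Cd274 differed by 0.17 ± 0.078, Btla by 0.20 ± 0.10 and Ctla4 by 0.10 ± 0.051 log2.

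Natural killer markers gave 5 of 7 higher, with a median of 0.02, and 3 of 7 either after median centring or without E4bp4-/- replicate 1 (medians -0.02 and -0.03). Klrb1c, which encodes the depletion target NK1.1, did not pass the filter. Their summed level ran from 11.19 to 12.66 in E4bp4-/- and from 11.44 to 12.37 in E4bp4+/+ marrow, and Klrd1 differed by 0.10 ± 0.094. Basophil and mast cell markers were higher in 12 of 12, with a median of 0.16. The count was 11 of 12 either after median centring or without E4bp4-/- replicate 1 (medians 0.12 and 0.11). Summed levels ran from 12.57 to 14.07 in E4bp4-/- and from 12.38 to 13.83 in E4bp4+/+ marrow. Besides Gata2, Tpsb2 and Cma1 differed by 0.08 ± 0.034 and 0.09 ± 0.043. Eosinophil markers gave 4 of 7 higher, 2 of 7 after median centring and 0 of 7 without E4bp4-/- replicate 1 (medians 0.02, -0.02 and -0.19), with summed levels from 11.43 to 14.48 in E4bp4-/- and from 12.58 to 14.58 in E4bp4+/+ marrow; Ccr3, Siglecf and Il5ra differed by 0.16 ± 0.18, 0.05 ± 0.19 and 0.04 ± 0.30. Macrophage markers were higher in 11 of 11, with a median of 0.22 and summed levels from 10.21 to 11.95 in E4bp4-/- and from 10.16 to 10.84 in E4bp4+/+ marrow; their mean level was 7.88 on E4bp4-/- replicate 1 and at most 6.68 on the other knockout arrays. Without that array 7 of 11 were higher, with a median of 0.01, and the mean level averaged 6.42 in E4bp4-/- and 6.44 in E4bp4+/+ marrow, so the difference rests on that array. Cd163, Chil3 and Mrc1 differed by 0.13 ± 0.096, 0.48 ± 0.39 and 0.28 ± 0.23 log2.

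Plasmacytoid dendritic cell markers were higher in 6 of 7 genes, with a median of 0.12 and summed levels from 10.72 to 11.01 in E4bp4-/- and from 10.64 to 10.89 in E4bp4+/+ marrow. Ccr9 was the exception, while Cox6a2 and Bst2 differed by 0.23 ± 0.12 and 0.13 ± 0.076 log2. Plasma cell and B cell genes were higher in 7 of 7, with a median of 0.19. Their summed levels ran from 11.78 to 12.36 in E4bp4-/- and from 11.44 to 12.17 in E4bp4+/+ marrow. Cd79a, Pax5 and Sdc1 differed by 0.33 ± 0.11, 0.19 ± 0.075 and 0.16 ± 0.067. Cd79a was at most 5.38 on the E4bp4+/+ arrays, below the 95th percentile of olfactory receptor genes (6.01). Of arginine metabolism genes, listed beside Arg1, 6 of 9 were higher with a median of 0.01, and 4 of 9 after median centring with a median of -0.03. The ornithine decarboxylase Odc1 differed by -0.14 ± 0.058, the arginine carrier Slc7a2 by 0.10 ± 0.048 and Nos1 by 0.08 ± 0.054 log2. The part of any of these cells in the Gata3 and Icos differences was not tested.

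**Figure D5:**
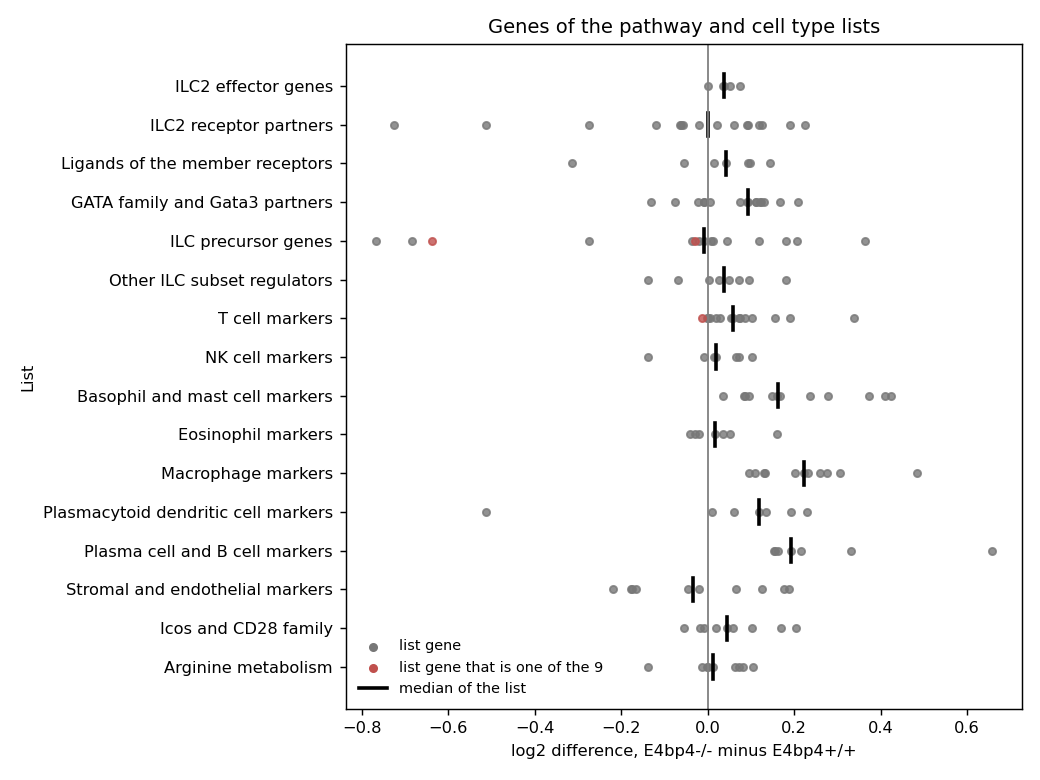
Log2 difference, E4bp4-/- minus E4bp4+/+ (horizontal axis), of each tested gene in the 16 lists; grey points are list genes, red points those that belong to the 9 genes described here, and black bars the median of each list. Medians lie between -0.03 (stromal and endothelial markers) and 0.22 (macrophage markers, 0.01 without E4bp4-/- replicate 1), and the points farthest to the left are Id2, Il2ra, Nfil3, Gata3 and Ccr9.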

How the data were processed

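Lineage-depleted marrow RNA was measured on Mouse Gene 1.0 ST GeneChips. Per the series design text, the authors made the deposited log2 levels in GeneSpring GX (version 11) by RMA16; the log2 scale was read from the range of the values, 3.18 to 14.33. Summarisation could not be varied. RMA forces arrays toward a common distribution, which hides a shift of most genes in 1 direction.

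The labelled genotype gave the groups, with 12 arrays from 12 mice. Transcript clusters under the 20th percentile of every array were dropped, and 29541 of 34760 were tested. Differences, E4bp4-/- minus E4bp4+/+, came from lmFit and eBayes of limma 3.58.1 (R 4.3.3) with genotype as the only term, Benjamini-Hochberg over all, threshold 0.05. Genes were named from the platform annotation, 21640 rows naming 1 gene; no array coordinates are printed. Relations within a genotype used exact permutation of the 720 pairings. On simulated data of this comparison over 29541 transcript clusters, limma recovered 74% of those changed by 0.5 log2 and 95% of those changed by 1, with 13 false calls. On the arrays themselves 0 of 29541 passed, with a smallest adjusted p of 0.109. Nfil3, at -0.68 log2, had a limma adjusted p of 0.140 there. Whether these recovery percentages hold for the arrays was not tested.

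The genes and lists were chosen with earlier results of these data known. Named genes were the 9, Nfil3, in each list the 3 genes with the lowest p-values, the 5 most like Gata3 and the 5 most like Icos, and 4 sex-linked genes. Others are said to be chosen after seeing the data. Alternatives changed the low-value filter, the scaling, the eBayes trend, the weights of arrays, the replicate block or left arrays out. Array number, 6 per genotype, limits the precision.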

Additional observations from a re-analysis of the deposited data

Results flagged for a closer look

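Sets of 6 values were searched for a single array whose gap to its nearest neighbour exceeded 0.625 of the range of its genotype. There were 11 such values in 122 sets. About 6.1 would arise by chance (1 in 20), and E4bp4-/- replicate 1 held 6 of the 11. Of the 8 genes described here 1 was among them: Bcl11b in E4bp4-/- replicate 1 stood at 6.86, against 6.67 to 6.74 on the other knockout arrays. On the same array Flt3 stood at 10.01, Ccr3 at 6.95, Cd163 at 6.60, Chil3 at 7.69 and Mrc1 at 7.11, all above the other knockout arrays. In E4bp4+/+ marrow Nfil3 in replicate 1 stood at 7.66, against 6.94 to 7.18 on the others, and Cd79a in replicate 1 at 5.38. Ccr9 in E4bp4+/+ replicate 2 stood at 6.08, against 6.65 to 6.85 on the others. Eomes in E4bp4-/- replicate 5 stood at 5.59 and 9530068E07Rik in E4bp4-/- replicate 4 at 10.35, the last being low.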

How the results depend on the processing

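The Gata3 and Icos differences kept their sign in all 20 alternatives run for each, from -0.74 to -0.55 and from -0.41 to -0.33. Part of this was fixed in advance. The filters and the eBayes trend leave the estimates unchanged, and leaving arrays out cannot turn the sign of Icos, whose genotypes do not overlap. The Rora difference ran from -0.18 to -0.04, lowest without E4bp4+/+ replicate 2 and highest without E4bp4+/+ replicate 5. With 1 array left out at a time, Bcl11b ran from -0.0368 to 0.0159, Il17rb from -0.188 to 0.0504, Il18r1 from -0.054 to 0.0368 and Arg1 from -0.0577 to 0.00435, so their signs depend on single arrays. The number of genes of the set lower in E4bp4-/- marrow was then 5 to 7. It was 4 of 4 with a 50th percentile filter, which leaves fewer genes to test. Genes above background numbered 4, against 1 past the 99th percentile of olfactory receptor genes and 7 when the 20th percentile had to be reached on at least 6 arrays. Transcript clusters at an adjusted p under 0.05 numbered 5 with array weights and 0 to 4 with 1 array left out, 4 of them without E4bp4-/- replicate 1; the cause was not tested. With the replicate number as a block, each block held 1 array of each genotype. Such a block cannot change the estimates, -0.64 for Gata3 and -0.37 for Icos. It moved the SE from 0.13 to 0.16 for Gata3 and from 0.063 to 0.061 for Icos, with 0 calls at the adjusted threshold. There were then 5149 at an unadjusted p under 0.05, against 4391 without the block. Same-numbered arrays correlated between -0.0327 and 0.462 in their deviations. Of the 6 E4bp4-/- arrays 3 correlated best with the E4bp4+/+ array of their own number. The labels do not say whether equal numbers mark pairs. The main fit took no pairs, and whether same-numbered arrays shared a batch was not tested. No member had another row naming it alone, so that alternative gave no value. Without the 2 arrays farthest in Gata3, 10 of the 14 relations with Gata3 turned sign. For the lists, in alternatives chosen after seeing the data, the number of genes higher in E4bp4-/- marrow under median centring was 2 of 5 effector genes (4 as deposited), 3 of 7 natural killer markers (5) and 2 of 7 eosinophil markers (4). Without E4bp4-/- replicate 1 it was 3 of 7 ligands (5), 3 of 7 natural killer markers, 0 of 7 eosinophil markers and 7 of 11 macrophage markers (11). The other lists stayed within 1.5 times.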
